A study of Mus musculus with 12 samples.

Results

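Leukocyte microRNAs were followed in the liver small RNA of 12 adult male mice. They were every listed arm of miR-223, miR-142, miR-150, miR-155, miR-146a and miR-146b, picked by name from the 386 rows of the table, and 8 rows were found. These are miR-142-5p, miR-142-3p, miR-223-3p, miR-223-5p, miR-150-5p, miR-155-5p, miR-146a-5p and miR-146b-5p.

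A microRNA (miRNA) is a short RNA cut from a hairpin precursor, whose arms give the products marked 5p and 3p. It directs repression of messenger RNAs that pair with its seed, the bases close to its 5′ end. miR-142 is made in nearly all blood cell lineages, and miR-223 in myeloid cells, where it is best known from granulocytes and monocytes. miR-150 is abundant in mature B, T and natural killer cells and is known to repress the transcription factor Myb. miR-155 is induced when lymphocytes and macrophages are activated. miR-146a is induced by NF-kappaB and represses the signalling proteins Irak1 and Traf6 in a negative feedback, and miR-146b carries the same seed. In liver these miRNAs are usually read as signs of Kupffer cells, recruited monocytes, neutrophils and lymphocytes, although miR-146 and miR-155 can also be made by other cells.

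All mice were wild type and of the C57BL/6 strain, were killed in a fasted state at postnatal day 84 (12 weeks) and differed in the diet of mother and son. Control chow held 7% simple carbohydrates and 3% lipids by weight, and the obesogenic diet 10% and 20%, given with sweetened condensed milk. Dams stayed on their diet until weaning, litters were brought to 6 pups on day 3, and sons were weaned onto their own diet on day 21. The first letter of a group's name gives the mother's diet and the second the son's. CC sons thus had control chow in both generations, CO sons the obesogenic diet from weaning only, OC sons an obesogenic mother and control chow, and OO sons the obesogenic diet in both generations, with 3 libraries per group. Which sons were littermates is not given in the labels, so the number of litters behind each group is unknown. The tests set group differences against the spread of libraries within groups and take each library as independent.

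Of the 8 rows, 7 had a mature sequence in the RefSeq table of assembly GRCm38.p6, which names miR-142 as miR-142a. The sequences are shown with the seed, bases 2 to 8 from the 5′ end, in capitals, because the shared seed decides which of these miRNAs can be read as a family.
miR-142-5p: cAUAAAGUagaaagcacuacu
miR-142-3p: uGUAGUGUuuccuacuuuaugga
miR-223-3p: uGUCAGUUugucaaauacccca
miR-223-5p: cGUGUAUUugacaagcugaguug
miR-155-5p: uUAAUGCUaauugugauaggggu
miR-146a-5p: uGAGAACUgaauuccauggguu
miR-146b-5p: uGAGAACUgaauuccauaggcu
Only miR-146a-5p and miR-146b-5p shared a seed. They were identical at 20 of 22 positions and differed by G18A and U21C, counted from the 5′ end with the base of miR-146a-5p first. How the authors assigned reads to such similar sequences is not given in the sources used here, so the split of reads between these 2 rows is uncertain.

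On GRCm38.p6 the Mir142 hairpin lies at chr11:87756864-87756927 on the plus strand, in an intron of the long noncoding gene Mir142hg and opposite the antisense hairpin Mir142b. The Mir155 hairpin lies at chr16:84714140-84714204 on the plus strand, in an exon of the noncoding gene Mir155hg. The Mir223 hairpin lies at chrX:96242817-96242926 on the plus strand, in an exon of the noncoding transcript F630028O10Rik. The 2 miR-146 genes are on different chromosomes. The miR-146a hairpin (symbol Mir146) lies at chr11:43374397-43374461 on the minus strand, overlapping no other annotated gene, and Mir146b at chr19:46342762-46342870 on the plus strand, in an intron of Mfsd13a.

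The deposited values are in CPM, reads of a miRNA scaled to the same total in each library. The scaling corresponded to between 5.45 and 22.2 M reads (M for mega-reads) per library. The shallowest library, CO replicate 3, and the deepest, OC replicate 1, also stood apart in several values below. The label liver was set against hepatocyte markers. The rows miR-122-5p, miR-122-3p, miR-192-5p and miR-194-5p were present in every library and together held 33.0% of the CPM total in CO replicate 3 and 25.7% to 28.5% in the other 11 libraries. On average most of this sum was miR-192-5p, at 246349 CPM. The titles' first letters split fully with maternal diet, so whatever they mark and maternal diet cannot be told apart. The last letter is shared by every control-fed son and OO replicate 2 and differs in the other obesogenic-fed sons, and OC replicate 2 and OO replicate 3 carry the same title but for it. The labels do not explain these letters, and their part in the results was not tested.

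As a share of the CPM total, the 8 miRNAs together made up 0.331 ± 0.0382% in CC libraries, 0.280 ± 0.0368% in CO libraries, 0.362 ± 0.0898% in OC libraries and 0.333 ± 0.0202% in OO libraries (mean ± SD of 3). The lowest library was CO replicate 3 at 0.238% and the highest OC replicate 1 at 0.465%. Whether a level in bulk liver reflects fewer cells of a type or less RNA per cell cannot be told apart.

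By mean CPM the order was miR-142-5p (2252 CPM, number 33 of 386 rows), miR-146a-5p (365, number 78), miR-150-5p (327, number 85), miR-223-3p (137, number 122), miR-142-3p (108, number 136), miR-146b-5p (60.6, number 159), miR-155-5p (11.3, number 251) and miR-223-5p (3.75, number 322). Ligation and amplification differ between sequences, so this order of reads need not be the order of amounts in the tissue. The reads behind a single value ran from 8018 to 68746 for miR-142-5p, from 34 to 514 for miR-155-5p and from 15 to 81 for miR-223-5p. The spread between libraries of 1 group was wide for miR-150-5p, with an SD of 0.48 on the log2 scale, and for miR-142-3p (0.47), against a median of 0.24 over all rows. All 8 had a larger within-group SD than that median, with miR-142-5p the nearest to it at 0.25.

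**Figure D1:**
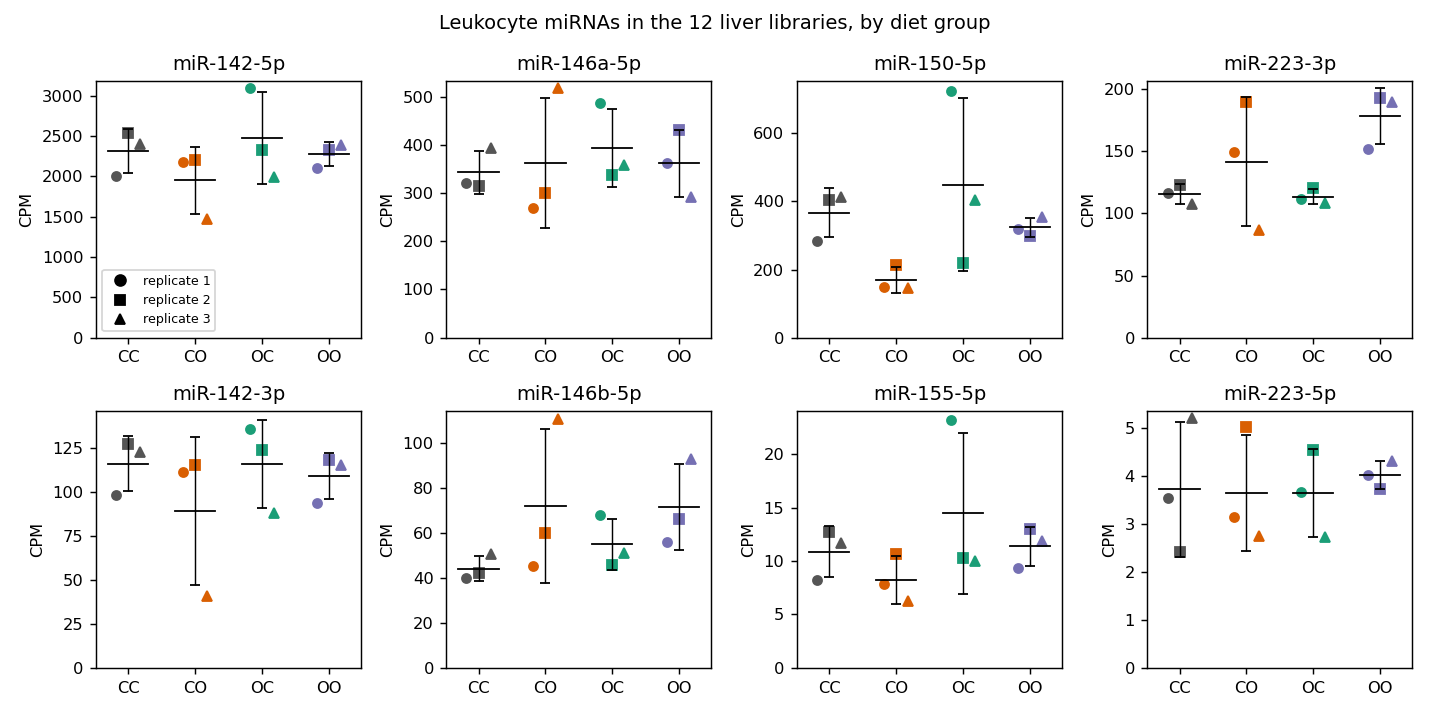
CPM of the 8 leukocyte miRNAs in each library (points, 1 shape per replicate number), with the mean (line) and SD (bar, n = 3) of each diet group. miR-150-5p is lowest in CO, miR-223-3p lies between 108 and 123 in every control-fed son, and CO replicate 3 is low for both miR-142 arms.

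No leukocyte miRNA passed the test for the sons' own diet. The comparison took 6 obesogenic-fed sons against 6 control-fed sons, averaged over both maternal diets, with limma on log2(CPM + 1) and Benjamini-Hochberg adjustment over all 386 rows. With an adjusted p under 0.05 called, 0 of the 8 passed and 3 of 386 rows did (0.777%). At an unadjusted p under 0.05 there were 3 of 8, which were miR-150-5p, miR-223-3p and miR-146b-5p, against 57 of 386 rows (14.8%). In none of the 8 did the 6 libraries of one diet lie wholly apart from the other 6, as they did in 10 of 386 rows (2.59%). The signs were mixed, with 3 higher and 5 lower and a median log2 change of -0.11, against -0.02 over all rows.

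The lymphocyte miRNA miR-150-5p had the largest difference by diet of the son among the 8. CC sons had 284, 404 and 414 CPM and CO sons 148, 215 and 147. OC sons had 724, 220 and 403 CPM and OO sons 319, 298 and 354. All 3 CO libraries lay below every other library, while OC ranged from near the CO level to the highest value in the series. The level averaged 408 ± 173 CPM over the 6 control-fed sons and 247 ± 89.5 CPM over the 6 obesogenic-fed sons (± SD). This was a log2 change of -0.71 (SE 0.242, 95% interval -1.24 to -0.18, limma adjusted p = 0.198).

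The low values of miR-150-5p were those of obesogenic-fed sons of control mothers. Against CC, the level in CO was 170 ± 38.9 compared with 367 ± 72.2 CPM (SD, n = 3 each), a log2 change of -1.11 (SE 0.342, limma adjusted p = 0.166). It was the only member of the 8 whose libraries did not overlap between CC and CO, a separation seen in 85 of 386 rows (22.0%), and the only one with an unadjusted p under 0.05 (63 of 386 rows, 16.3%). At an adjusted p under 0.05, 0 of 8 were called and 3 of 386 rows (0.777%). After obesogenic mothers, OO against OC, the log2 change of miR-150-5p was -0.31 (SE 0.342, adjusted p = 0.944), and it was 0.11 without OC replicate 1. The difference between these 2 effects was itself tested as an interaction and was 0.80 on the log2 scale (SE 0.484, adjusted p = 0.773), so they were not shown to differ. The interaction became 1.23 if OC replicate 1 was left out and 0.37 if OC replicate 2 was, and without the latter the OO against OC change was -0.74.

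miR-155-5p, the activation-induced miRNA, was low throughout. CC sons had 8.19, 12.7 and 11.7 CPM, CO sons 7.86, 10.7 and 6.24, OC sons 23.2, 10.3 and 9.99, and OO sons 9.37, 13.0 and 11.8. Apart from OC replicate 1 every library lay between 6.24 and 13.0 CPM, and the groups overlapped. Its log2 change with the sons' diet was -0.30 (SE 0.215, limma adjusted p = 0.557), and -0.11 without OC replicate 1.

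The myeloid miRNA miR-223-3p was nearly constant in control-fed sons and higher in 5 of 6 obesogenic-fed sons. It stood at 117, 123 and 108 CPM in CC and 112, 120 and 109 in OC, and at 149, 190 and 86.3 in CO and 152, 193 and 190 in OO. CO replicate 3 held the lowest value of all 12 libraries, and the other obesogenic-fed sons lay above every control-fed son. The means were 115 ± 6.35 and 160 ± 41.1 CPM (SD, n = 6 each), a log2 change of 0.43 (SE 0.164, 95% interval 0.07 to 0.79, limma adjusted p = 0.258). Without CO replicate 3 the log2 change was 0.59 (SE 0.0952, adjusted p = 0.0145), and the 5 obesogenic-fed sons, at 149 to 193 CPM, did not overlap the control-fed sons at 108 to 123 CPM. Without that library 4 of 386 rows passed (1.04%) and 17 of 386 did not overlap (4.40%). CO replicate 3 was singled out here after its value was seen, so this fit is a description. Its gap to the nearest obesogenic-fed son was 0.590 of their range, under the 0.625 used for flagging below. The library was the shallowest, and it also had the highest share of the hepatocyte rows, a sum that was mostly miR-192-5p on average. Its share of the endothelial pair miR-126-3p and miR-126-5p was the lowest (1.56%, against 2.11% to 2.81% elsewhere). Its shares of the mesenchymal (4.62%, against 3.15% to 4.83%), erythroid (0.506%, against 0.287% to 0.902%) and epithelial marker rows (0.0481%, against 0.0396% to 0.0892%) were neither highest nor lowest. The part of depth or of tissue makeup in its values was not tested.

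After obesogenic mothers the level of miR-223-3p was 178 ± 22.6 CPM in OO against 114 ± 6.09 in OC (SD, n = 3 each), a log2 change of 0.64 (SE 0.232, limma adjusted p = 0.673). It was the only member of the 8 with an unadjusted p under 0.05 there (28 of 386 rows, 7.25%) and the only one without overlap (60 of 386 rows, 15.5%), and 0 of 8 were called at an adjusted p under 0.05 against 2 of 386 rows (0.518%). After control mothers, CO against CC, the log2 change was 0.22 (SE 0.232, adjusted p = 0.686). This value depended on single CO libraries, being 0.54 without replicate 3 and -0.03 without replicate 2. The interaction was 0.42 (SE 0.328, adjusted p = 0.773), and 0.10 without CO replicate 3. In OO against OC, 1 of the 5 mesenchymal marker rows, miR-199a-5p, had an unadjusted p under 0.05 and a log2 change of 0.34. Of the 5 rows 3 were higher and 2 lower. Together they held 3.55 ± 0.154% of the CPM total in OO and 3.76 ± 0.182% in OC (SD, n = 3 each). Their part in the result was not tested.

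The minor arm miR-223-5p stayed between 2.41 and 5.19 CPM, with overlapping groups, and its log2 change with the sons' diet was 0.06 (SE 0.176, limma adjusted p = 0.930). The ratio of miR-223-5p to miR-223-3p lay between 0.0193 and 0.0483 over the libraries. Its log2 was -5.01 in control-fed and -5.36 in obesogenic-fed sons, a difference of -0.35 (two-sided exact permutation p = 0.134, adjusted p = 0.537 over 4 tests, n = 6 each).

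The pan-leukocyte miRNA miR-142-5p had the smallest within-group SD of the 8 (0.25 on the log2 scale). The values were 2003, 2538 and 2396 CPM for CC, 2179, 2196 and 1472 for CO, 3098, 2331 and 1989 for OC, and 2104, 2329 and 2390 for OO. The 2 extreme libraries were CO replicate 3 and OC replicate 1, and the groups overlapped. Its log2 change with the sons' diet was -0.18 (SE 0.133, 95% interval -0.47 to 0.11, limma adjusted p = 0.565), so that a log2 change of 1 in either direction lay outside the interval. With either of these 2 libraries left out it was -0.09.

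The other arm, miR-142-3p, had 98.4, 127 and 123 CPM for CC, 111, 116 and 40.9 for CO, 136, 124 and 88.2 for OC, and 94.1, 119 and 115 for OO. CO replicate 3 was far below all other libraries. The log2 change was -0.29 (SE 0.237, limma adjusted p = 0.612). Leaving out CO replicate 3 brought it to -0.05. The ratio of miR-142-5p to miR-142-3p was 18.8 to 22.8 in 11 libraries and 36.0 in CO replicate 3. On the log2 scale this ratio differed by 0.11 between obesogenic-fed and control-fed sons (two-sided exact permutation adjusted p = 0.946 over 4 tests, n = 6 each).

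Of the feedback miRNAs, miR-146a-5p had the smallest difference by the sons' diet among the 8. Its values were 320, 315 and 394 CPM for CC, 268, 301 and 518 for CO, 487, 338 and 359 for OC, and 363, 431 and 291 for OO. The groups overlapped widely, with the highest and the lowest library both in CO. The log2 change was -0.05 (SE 0.173, 95% interval -0.43 to 0.33, limma adjusted p = 0.933), and its sign changed with the scaling. Leaving out CO replicate 3 gave -0.19 and leaving out OC replicate 1 gave 0.03.

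For miR-146b-5p, CC sons had 39.8, 42.0 and 50.4 CPM and CO sons 45.2, 59.8 and 110. OC sons had 67.7, 45.9 and 51.1 CPM and OO sons 56.0, 65.9 and 92.6. The highest libraries were CO replicate 3 and OO replicate 3, and the arms overlapped. Control-fed sons averaged 49.5 ± 10.0 CPM and obesogenic-fed sons 71.6 ± 24.7 (± SD over 6 libraries), a log2 change of 0.48 (SE 0.210, limma adjusted p = 0.317), which was 0.30 without CO replicate 3. It was 0.60 after control mothers (SE 0.297, adjusted p = 0.341) and 0.36 after obesogenic mothers (SE 0.297, adjusted p = 0.905), and the interaction was -0.24 (SE 0.419, adjusted p = 0.842). Without CO replicate 3 the change after control mothers was 0.24 and the interaction 0.12, and without OO replicate 3 the change after obesogenic mothers was 0.16. No member had an unadjusted p under 0.05 for the interaction, against 15 of 386 rows (3.89%), and none of 386 rows passed it after adjustment (0.00%).

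**Figure D2:**
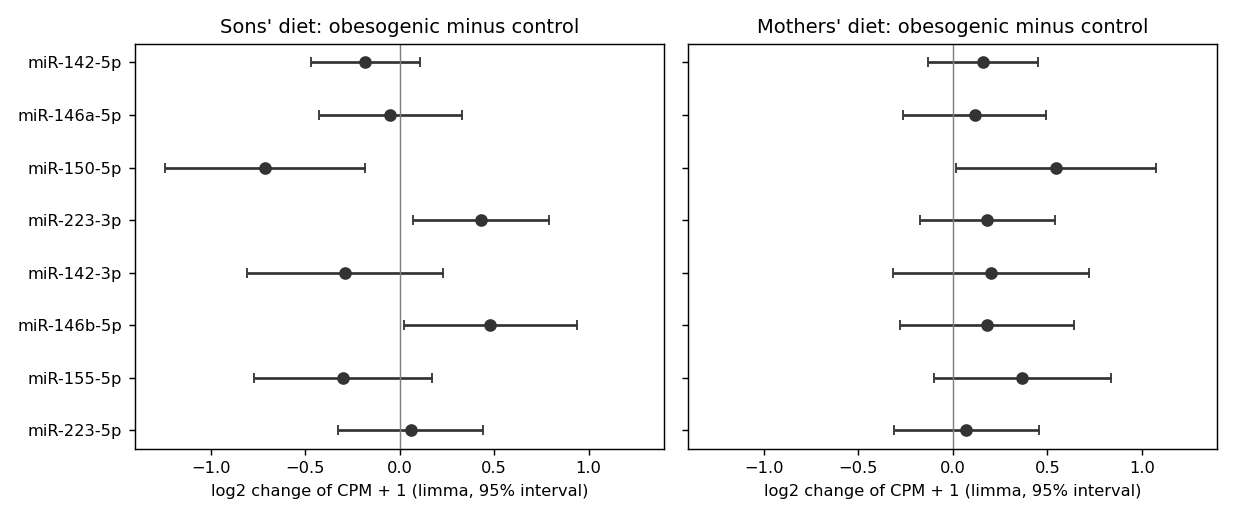
Log2 change of CPM + 1 with its 95% interval from limma for each leukocyte miRNA, with the sons' obesogenic diet (left) and with the mothers' obesogenic diet (right), n = 6 libraries in each arm. With the sons' diet miR-150-5p lies at -0.71 and miR-223-3p at 0.43, and with the mothers' diet all 8 points lie above 0, with 7 of 8 intervals crossing it.

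Maternal diet, taken over both diets of the son, gave no call among the 8 or among all 386 rows (0 of 386, 0.00%). All 8 were nevertheless higher on average with obesogenic mothers, with a median log2 change of 0.18 against 0.08 over all rows, of which 265 were higher and 121 lower. With median-of-ratios or TMM factors all 8 were again higher, and with depth as a covariate 5 of 8 were. Depth ranged from 5.45 to 15.0 M reads with control mothers and from 10.5 to 22.2 M reads with obesogenic mothers, and the median of all rows moved to 0.00 with depth as a covariate.

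The largest maternal difference was that of miR-150-5p. Its median was 336 CPM (220 to 724) over the 6 sons of obesogenic mothers and 249.5 CPM (147 to 414) over the 6 sons of control mothers, with a log2 change of 0.55 (SE 0.242, limma adjusted p = 0.579). It was the only 1 of 8 at an unadjusted p under 0.05 (27 of 386 rows, 6.99%), and without OC replicate 1 the change was 0.33. The log2 change was 0.37 for miR-155-5p (adjusted p = 0.630), 0.20 for miR-142-3p, 0.18 for miR-223-3p and for miR-146b-5p, 0.16 for miR-142-5p, 0.12 for miR-146a-5p and 0.07 for miR-223-5p. Without OC replicate 1 it was 0.18 for miR-155-5p, 0.07 for miR-142-5p, 0.03 for miR-146a-5p and 0.10 for miR-146b-5p. Without CO replicate 3 it was -0.04 for miR-142-3p, 0.02 for miR-223-3p, 0.07 for miR-142-5p, 0.26 for miR-146a-5p, 0.36 for miR-146b-5p and 0.00 for miR-223-5p. None of the 8 separated the 6 sons of obesogenic mothers from the other 6, as 3 of 386 rows did (0.777%).

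The maternal difference was also taken within each diet of the son, first between OO and CO, both obesogenic-fed. miR-150-5p is given in full. All 3 OO libraries, at 298 to 354 CPM, lay above all 3 CO libraries, at 147 to 215 CPM, with a log2 change of 0.95 (SE 0.342, limma adjusted p = 0.307). It was the only 1 of 8 without overlap (74 of 386 rows, 19.2%) and at an unadjusted p under 0.05 (47 of 386 rows, 12.2%), and 0 of 386 rows passed after adjustment (0.00%). The 8 had a median of 0.32, against 0.13 over all rows. With TMM factors 6 of 8 were higher and the medians were 0.16 and -0.01, and without CO replicate 3 they were 0.17 and 0.06. Other markers at an unadjusted p under 0.05 in this comparison were 3 of 5 mesenchymal rows and both endothelial rows, all higher. So was 1 of 5 erythroid rows, which was lower as were the other erythroid rows (median -0.51). Of the 5 mesenchymal rows 4 were higher and 1 lower. Together these 5 held 3.55 ± 0.154% of the CPM total in OO and 4.02 ± 0.522% in CO (SD, n = 3 each). The part of these markers in the values was not tested. For miR-223-3p the log2 change was 0.39, and 0.07 without CO replicate 3. In control-fed sons, OC against CC, the 8 overlapped throughout (34 of 386 rows separated, 8.81%), none had an unadjusted p under 0.05 (4 of 386 rows, 1.04%) and 0 of 386 rows passed (0.00%). There the log2 change of miR-150-5p was 0.15 (SE 0.342, limma unadjusted p = 0.679). The interaction given above is also the test of the OO against CO change minus this one, and it did not pass.

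Sons with both obesogenic exposures were compared with those with neither. miR-223-3p, at 178 ± 22.6 CPM in OO and 116 ± 7.76 in CC (SD, n = 3 each), had a log2 change of 0.61 (SE 0.232, limma adjusted p = 0.306). miR-146b-5p, at 71.5 ± 19.0 and 44.1 ± 5.60 CPM, had one of 0.66 (SE 0.297, adjusted p = 0.398). These were the 2 of 8 without overlap (85 of 386 rows, 22.0%) and at an unadjusted p under 0.05 (47 of 386 rows, 12.2%). After adjustment 0 of 8 passed and 1 of 386 rows (0.259%). With depth as a covariate the change of miR-223-3p was 0.39. Of the 5 mesenchymal marker rows, 3 were higher and 2 lower. Those at an unadjusted p under 0.05 were 2 of the higher ones, miR-199a-5p and the row shared by miR-199a-3p and miR-199b-3p. Together the 5 rows held 3.55 ± 0.154% of the CPM total in OO and 3.76 ± 0.930% in CC (SD, n = 3 each). Their part in the result was not tested. miR-150-5p, which had the lowest values in CO, differed by -0.17 (SE 0.342) between OO and CC. The comparisons share groups, so their values for a miRNA are not independent of each other.

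In the order of group means, neighbouring groups did not overlap for 1 step of 24, that from CO to OO in miR-150-5p. CO and OO lay apart in 74 of 386 rows (19.2%), and the share of such neighbouring steps over all rows was not computed. The order of group means ran CO, OO, CC and OC for miR-150-5p and OC, CC, CO and OO for miR-223-3p.

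Ratios between the miRNAs within a library do not depend on how that library was scaled. They were looked at after the single values were known and are given as a description. Of the 28 pairs of the 8 miRNAs, 3 had a ratio that separated all 6 control-fed from all 6 obesogenic-fed sons, against 2083 of 74305 pairs of all rows (2.80%). The 3 pairs were miR-146a-5p with miR-146b-5p and miR-223-3p with each arm of miR-142, and the latter pairs share miR-223-3p and 1 hairpin.

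The ratio of miR-146a-5p to miR-146b-5p was 8.05, 7.48 and 7.82 in CC and 7.19, 7.36 and 7.01 in OC, and 5.94, 5.03 and 4.69 in CO and 6.48, 6.54 and 3.15 in OO. Control-fed sons were close together at 7.49 ± 0.391 and obesogenic-fed sons lower and more spread at 5.31 ± 1.30 (SD, n = 6 each). CO replicate 3, which was high for both miRNAs, and OO replicate 3, which was high for miR-146b-5p only, were the lowest.

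The ratio of miR-223-3p to miR-142-5p was 0.0582, 0.0485 and 0.0449 in CC and 0.0360, 0.0516 and 0.0546 in OC, and 0.0684, 0.0864 and 0.0586 in CO and 0.0723, 0.0827 and 0.0793 in OO. The gap was narrow, between CC replicate 1 at 0.0582 and CO replicate 3 at 0.0586. The ratio to miR-142-3p was 1.01 ± 0.166 in control-fed and 1.66 ± 0.248 in obesogenic-fed sons (SD, n = 6 each). CO replicate 3, which was the lowest library for miR-223-3p itself, was the highest for this ratio at 2.11.

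The ratio of the myeloid miR-223-3p to the lymphocyte miR-150-5p was 0.324 ± 0.136 in control-fed and 0.690 ± 0.211 in obesogenic-fed sons (SD, n = 6 each). It was 0.827 ± 0.218 in CO and 0.553 ± 0.0860 in OO, against 0.325 ± 0.0771 in CC and 0.323 ± 0.202 in OC (SD, n = 3 each). The arms overlapped because OC replicate 2, at 0.546, lay above OO replicate 1 at 0.477 and OO replicate 3 at 0.536.

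**Figure D3:**
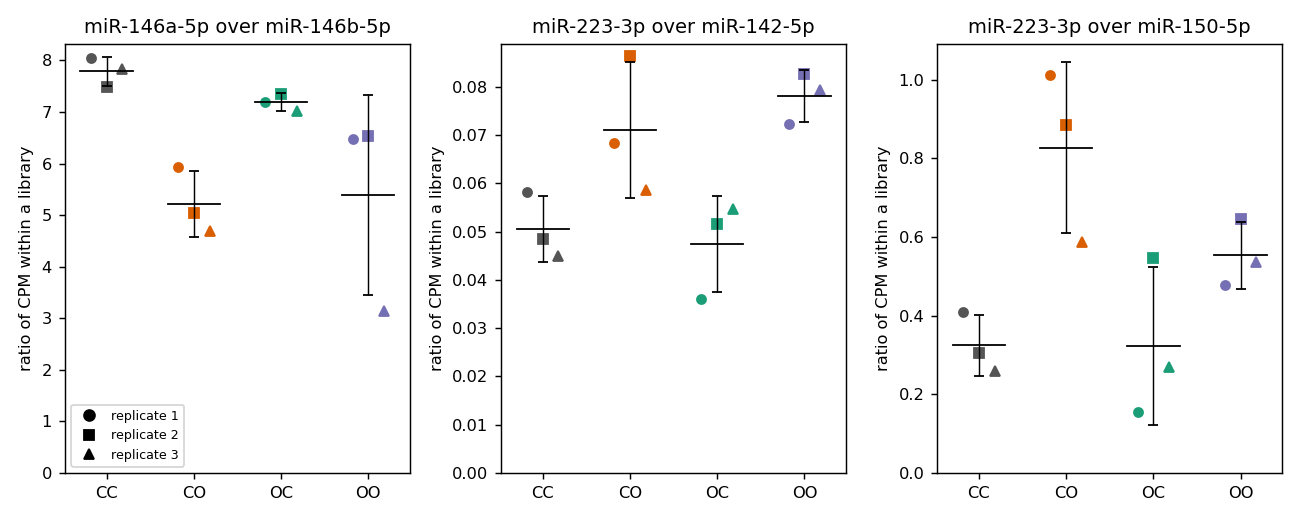
Ratio of CPM of 2 miRNAs within each library (points, 1 shape per replicate number), with the mean (line) and SD (bar, n = 3) of each diet group. The ratio of miR-146a-5p to miR-146b-5p is 7.01 to 8.05 in control-fed and 3.15 to 6.54 in obesogenic-fed sons, and that of miR-223-3p to miR-150-5p overlaps between them.

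Across the 12 libraries the members did not move as 1 block. Correlations of log2(CPM + 1) were computed for 17 pairs, with permutation tests of 100000 resamples adjusted over the pairs. The arms of miR-142 went together (Pearson r = 0.91, Spearman rho = 0.94, permutation adjusted p = 0.00051 for both), and r was also 0.91 without the 2 libraries farthest from the median, CO replicate 3 and OC replicate 1. Within sons of control mothers r was 0.97 and within those of obesogenic mothers 0.88 (6 libraries each).

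miR-155-5p followed miR-142-5p (r = 0.91, rho = 0.85, permutation adjusted p = 0.0034 and 0.00875), with r = 0.76 without those 2 libraries, 0.90 within control and 0.94 within obesogenic mothers. miR-150-5p followed miR-155-5p by Pearson's measure (r = 0.84, permutation adjusted p = 0.0038) and less by rank (rho = 0.71, adjusted p = 0.0697), and r was 0.58 without the 2 libraries, 0.83 within control and 0.80 within obesogenic mothers. The relation of miR-142-5p to miR-150-5p (r = 0.72, rho = 0.65, permutation adjusted p = 0.0453 and 0.108; r = 0.70 and 0.63 within control and obesogenic mothers) rested on the same 2 libraries, since r was 0.21 without them.

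Other pairs did not pass. For miR-150-5p and miR-223-3p r was -0.07 (rho = -0.18, permutation adjusted p = 0.933 and 0.856), and within control and obesogenic mothers it was -0.08 and -0.36. For miR-146a-5p and miR-146b-5p r was 0.51 (rho = 0.46, permutation adjusted p = 0.266 and 0.377), with 0.80 within control mothers, 0.23 without CO replicate 3 and -0.12 within obesogenic mothers. The arms of miR-223 gave r = 0.41 (rho = 0.29, permutation adjusted p = 0.461 and 0.776), with the minor arm resting on few reads.

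For the more abundant arm of each hairpin, 6 in all, the most similar of the 378 other rows were named by Pearson r over the 12 libraries, which share depth and scaling. These were chosen as the highest of many, so r is a description. For miR-142-5p they were miR-331-3p (r = 0.89), miR-187-3p (0.88) and miR-130b-3p (0.87), and each r fell by leaving out CO replicate 3, to between 0.69 and 0.74. For miR-150-5p they were miR-1843a-3p (r = 0.87), miR-26b-5p (0.86) and miR-3084-3p (0.83), and for miR-155-5p miR-129-5p (0.90), miR-26b-5p (0.82) and let-7i-3p (0.80). For miR-223-3p they were miR-210-3p (r = 0.90), miR-674-3p (0.89) and miR-199a-5p (0.87). For miR-146a-5p they were let-7e-5p (r = 0.87), miR-10a-5p (0.79) and let-7a-5p (0.74), and for miR-146b-5p miR-1839-5p (0.93), miR-98-5p (0.83) and let-7i-5p (0.82). For these other arms, r without CO replicate 3 was 0.66 to 0.89, lower for every row but let-7e-5p and let-7i-5p. Among the rows named, miR-146a-5p and miR-146b-5p had none in common, though both lists held let-7 rows.

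A wider list of immune-associated miRNAs had 19 of 20 names in the table, and 0 of 19 passed in any of the 8 comparisons. With the sons' diet 7 were higher and 12 lower, with a median log2 change of -0.09 against -0.02 over all rows. Of the 19, 2 had an unadjusted p under 0.05, against 57 of 386 rows (14.8%), and both were arms of miR-511. miR-511-3p (20.4 CPM on average) had a log2 change of -0.54 (SE 0.156, limma adjusted p = 0.149) and miR-511-5p (15.4 CPM) one of -0.30 (SE 0.0909, adjusted p = 0.171). The most abundant member was miR-21a-5p at 49286 CPM, a miRNA that many cell types express, with a log2 change of 0.04. In CO against CC 7 of the 19 were higher and 12 lower. There 5 had an unadjusted p under 0.05, against 63 of 386 rows (16.3%). These were both arms of miR-511, miR-17-5p, miR-20a-5p and miR-23a-3p.

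Markers of other cells were set beside these values, and with limma 0 rows of the erythroid, endothelial, mesenchymal, hepatocyte or epithelial lists passed in any of the 8 comparisons. With the sons' diet, miR-192-5p was the only row of these lists at an unadjusted p under 0.05. Of the 4 hepatocyte rows 1 was higher and 3 were lower there. The 5 erythroid rows held 0.902% of the CPM total in CO replicate 1 and 0.287% to 0.525% in the other libraries, so that 1 of the 3 libraries with low miR-150-5p also stood out for blood markers. In CO against CC all 5 erythroid rows were higher, with a median log2 change of 0.39 and 1 of 5 at an unadjusted p under 0.05. Both endothelial rows were lower, at a median of -0.34, and both had an unadjusted p under 0.05. Over all rows 63 of 386 (16.3%) had one and the median log2 change was -0.05. The part of these in the low miR-150-5p of CO was not tested. The 5 mesenchymal rows held 3.76 ± 0.599% in control-fed and 3.78 ± 0.429% in obesogenic-fed sons, and the 5 epithelial rows 0.0538 ± 0.0202% and 0.0604 ± 0.0165% (SD, n = 6 each).

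Single libraries decided whether the sons' diet gave a call. Leaving out 1 library at a time, the log2 change of miR-150-5p ran from -0.93 to -0.50 and that of miR-223-3p from 0.31 to 0.59, each with 1 sign throughout. miR-150-5p passed only without OC replicate 2 (-0.93, SE 0.180, limma adjusted p = 0.0300; 5 of 386 rows, 1.30%), the control-fed son with the lowest value at 220 CPM, and its smallest change was that without OC replicate 1. miR-223-3p passed only without CO replicate 3, the obesogenic-fed son with the lowest value. Both calls left out a library that lay against the difference, so they are descriptions. In the other 10 fits that left out 1 library, 0 of 8 passed and 3 or 4 of 386 rows did.

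**Figure D4:**
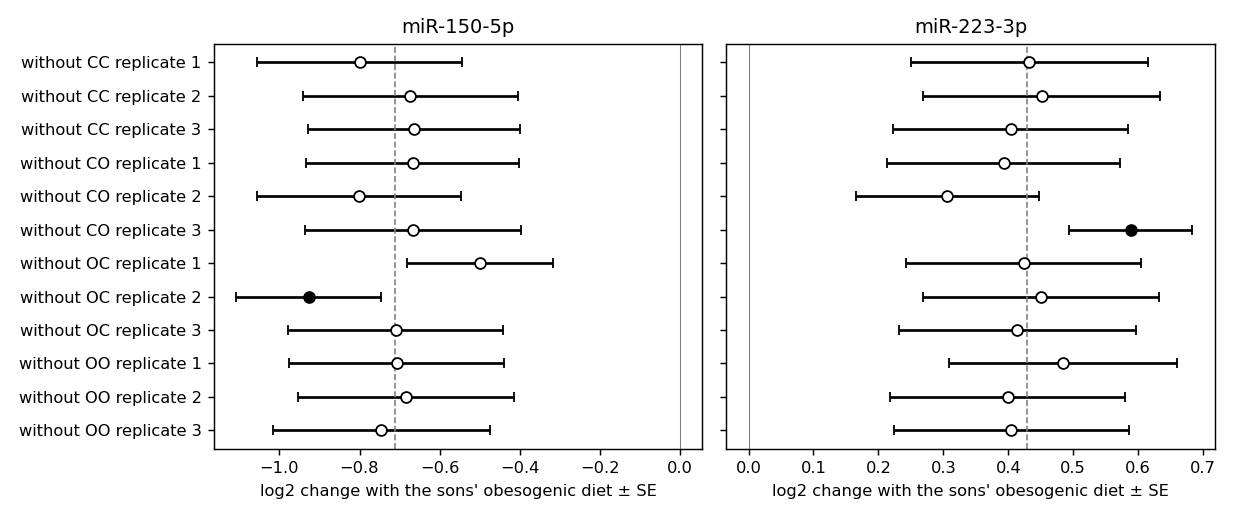
Log2 change with the sons' obesogenic diet, with its SE from limma, for miR-150-5p (left) and miR-223-3p (right) after leaving out each library in turn. Filled points have an adjusted p under 0.05, and the dashed line is the value with all 12 libraries (-0.71 and 0.43). 1 point is filled in each panel.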

How the data were processed

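Small RNA of 12 livers was sequenced after miRNeasy extraction and TruSeq sRNA library preparation, per the labels' protocols. The submitters' processing notes list Bowtie 1.2.3. Not given in the sources used here are the miRNA reference, the genome build and the rule for multiply matching reads. In the table that the authors deposited, 386 miRNA rows hold CPM, 4 of them under several names, with 0 values at 0. Values in a library were whole multiples of 1 step (100% within 0.001 reads), which gave depths of 5.45 to 22.2 M reads (median 13.2). Columns summed to 0.866% to 1.17% above the CPM total.

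Values were tested as log2(CPM + 1) with limma 3.58.1 (R 4.3.3) and a mean-variance trend, with 1 mean per group over 12 libraries, 8 two-sided contrasts, Benjamini-Hochberg adjustment over 386 rows within each, and a threshold of 0.05. A change on this scale is understated at low CPM. No filter was applied to the 386 rows. They held no value at 0, so miRNAs without reads in some library were not among them. Because the table holds CPM, no model of raw reads was fitted. Arm ratios were tested by exact permutation and correlations by permutation. Python 3.11.15, numpy 2.4.6, pandas 2.3.3, scipy 1.17.1 and matplotlib 3.10.9 were used.

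Every member row was named. Of other lists, the most abundant immune member and some of those with an unadjusted p under 0.05 were named. The latter were picked after their values were seen, as were the ratios. The members and lists were chosen with earlier results of these data known. Replicate numbers follow accession order and pair nothing. Alternatives were other pseudocounts (0.25 and 5), a mean of at least 10 CPM, median-of-ratios and TMM factors, depth as a covariate, only the groups compared, and each library left out.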

Additional observations from a re-analysis of the deposited data

Results flagged for a closer look

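For each miRNA the 6 libraries of each diet arm of sons and of mothers were looked at, 32 groups in all. In 8 of them the highest or lowest library lay far from the others, its gap to the nearest being more than 0.625 of the whole range. Chance does this in about 1 in 20 groups, and the arms share libraries. The same count was not made over all 386 rows, so these flags are not shown to be particular to the 8 miRNAs. The median log2 deviation of all rows from their means was -0.20 in CO replicate 3, 0.08 in OC replicate 1 and -0.04 to 0.13 in the other libraries.

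All 8 flagged groups came from CO replicate 3 or OC replicate 1, the shallowest and the deepest library. CO replicate 3 was the lowest obesogenic-fed son for miR-142-5p (1472 CPM) and for miR-142-3p (40.9 CPM). It was also the lowest son of a control mother for miR-142-3p (40.9 CPM) and the highest for miR-146b-5p (110 CPM). OC replicate 1 was the highest son of an obesogenic mother for miR-142-5p (3098 CPM), miR-150-5p (724 CPM) and miR-155-5p (23.2 CPM), and the highest control-fed son for miR-155-5p.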

How the results depend on the processing

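The number of the 8 miRNAs that passed was 0 in each of the 8 comparisons under every alternative run, except that for the sons' diet it ranged from 0 to 1 when single libraries were left out (1 without CO replicate 3 and 1 without OC replicate 2). Of the reported log2 changes under alternatives, 544 kept their direction and side of the threshold, 22 changed sign and 2 newly passed. With the sons' diet miR-146a-5p was 0.0039 with TMM factors and -0.19 to 0.043 with single libraries left out, and miR-223-5p was -0.048 to 0.17. Leaving out single libraries gave -0.026 to 0.54 for miR-223-3p in CO against CC, -0.74 to 0.11 for miR-150-5p in OO against OC, -0.21 to 0.42 for miR-146b-5p in OO against CO and -0.51 to 0.12 for its interaction. miR-146b-5p in OO against CO was -0.070 under median-of-ratios factors and -0.093 under TMM factors. With the mothers' diet and depth as a covariate, miR-223-3p was -0.10, miR-142-3p -0.20 and miR-223-5p -0.067, and single libraries left out gave -0.039 to 0.33 for miR-142-3p and -0.035 to 0.18 for miR-223-5p. For log2 arm ratios, leaving out single libraries gave -0.026 to 0.16 (miR-142, sons' diet), -0.083 to 0.10 (miR-142, mothers' diet) and -0.19 to 0.069 (miR-223, mothers' diet). With TMM factors r was 0.56 for miR-142-5p and miR-150-5p (adjusted p = 0.190), -0.018 for miR-142-5p and miR-223-3p and -0.098 for miR-223-3p and miR-155-5p. The cause of these changes was not tested. Over all rows, calls for the sons' diet were 3, but 8 with median-of-ratios factors (2 higher, 6 lower), 7 with TMM factors (2 higher, 5 lower) and 5 without OC replicate 2. They were 3 for CO against CC, but 10 with depth as a covariate and 1 with TMM factors, 2 for OO against OC but 0 to 2 with single libraries left out, 1 for OO against CC but 3 without CO replicate 3, 0 for OO against CO but 2 without CO replicate 2, and 0 for maternal diet and for the interaction but 1 each with depth as a covariate. A mean of at least 10 CPM left miR-223-5p out. The planned edgeR and DESeq2 alternatives were not run. No paired analysis was possible because replicate numbers come from accession order and pair nothing.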
